A study of Homo sapiens with 44 samples.

Results

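MEF2A, MEF2C and MEF2D, the MADS-box factor SRF and the cardiac cofactors SMYD1, HOPX and PRDM16 were followed through cardiac differentiation of human pluripotent cells. These 7 genes were chosen by name, from a list of MEF2 factors and muscle cofactors, out of 60499 genes in the count table. All 7 passed the filter on low counts and were among the 22955 genes tested. The cells were of H1, which is an established line of human embryonic stem cells. Pluripotent cells grew on laminin LN-521, a basement-membrane protein, and formed 1 group of 3 wells. All other wells were coated with LN-521 and LN-221 together and were sampled at days 0, 1, 3, 5, 7, 9, 11, 14, 20, 30 and 90. Day 0 wells were in pluripotency medium. CHIR99021, which activates Wnt signalling by inhibiting GSK3, was present at days 1 and 3, and IWP2, which blocks Wnt secretion, at day 5. The medium held B27 without insulin from day 1 to day 9 and CTS B-27 from day 11. Days 5, 7, 9 and 11 had 5 wells each and the other groups 3, which gave 44 libraries in 12 groups. For day 11 the series text gives 3 wells and the labels 5, and which wells it means is not stated. All groups come from 1 cell line, and no wells were left without CHIR99021 and IWP2 after day 0, so time and treatment cannot be told apart.

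MEF2 proteins bind A/T-rich sites in muscle genes, act with tissue-restricted factors and are held in check by class IIa histone deacetylases. SRF binds the CArG box and switches between growth-response and muscle genes according to its partner, myocardin-type coactivators on one side and ETS-family factors on the other. SMYD1 is a muscle-restricted lysine methyltransferase needed for myofibril assembly, HOPX is a homeodomain protein that restrains SRF without binding DNA itself, and PRDM16 is a zinc-finger regulator known from brown fat and from the compact ventricular wall.

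Total counts per library ran from 6937136 to 33498022, and the RNA integrity number (RIN) from 7.4 to 10. The summed TPM of 6 cardiomyocyte markers was at most 43.3 up to day 3 and at least 1436 from day 7. MYOD1, MYOG and PAX7, the defining genes of skeletal muscle lineage, summed to at most 1.03 TPM in any library. UCP1, CIDEA, PPARG and ADIPOQ, markers of fat, summed to at most 3.12 TPM, and the blood markers to at most 3.02 TPM. Markers of endoderm and liver (FOXA2, SOX17, AFP, ALB, TTR and APOA1) were uneven. They summed to 2195 and 4090 TPM in day 11 replicates 1 and 2 against 46.5 to 55.0 TPM in the other day 11 wells, and to 1760 TPM in day 9 replicate 2 against 143 to 719 TPM in the other day 9 wells. In bulk RNA, fewer cells of a type and less RNA per cell cannot be told apart. The labels name the libraries of a group biological replicates from separate wells of 1 line, so p-values measure the spread between wells.

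The promoter sequences of 4 of the genes are shown because SRF and MEF2 factors are known to regulate their own genes, and SMYD1 is a known target of MEF2C in mice. Windows of 300 bases, from 250 bases before to 50 bases after an annotated start, were taken from RefSeq (GRCh38.p14). There were 16 such windows for 6 of the 7 members. Both strands were searched for the CArG box and for the MEF2 site, which do not overlap in these windows. Matches are in capitals, and the sequences run 5′ to 3′ along the gene.
SRF, chr6:43171019-43171318, plus strand: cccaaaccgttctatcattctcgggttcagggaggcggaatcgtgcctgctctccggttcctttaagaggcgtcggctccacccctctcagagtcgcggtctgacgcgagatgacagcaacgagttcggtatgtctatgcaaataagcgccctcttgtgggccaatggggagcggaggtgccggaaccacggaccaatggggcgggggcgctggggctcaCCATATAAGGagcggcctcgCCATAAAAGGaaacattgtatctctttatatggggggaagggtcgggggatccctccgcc
MEF2A, chr15:99565734-99566033, plus strand: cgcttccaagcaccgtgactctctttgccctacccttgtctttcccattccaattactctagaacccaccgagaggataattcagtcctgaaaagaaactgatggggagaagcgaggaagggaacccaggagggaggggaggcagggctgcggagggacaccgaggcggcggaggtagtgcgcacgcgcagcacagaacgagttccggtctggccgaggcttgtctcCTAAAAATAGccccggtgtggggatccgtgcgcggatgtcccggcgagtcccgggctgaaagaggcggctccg
MEF2C, chr5:88824295-88824594, minus strand: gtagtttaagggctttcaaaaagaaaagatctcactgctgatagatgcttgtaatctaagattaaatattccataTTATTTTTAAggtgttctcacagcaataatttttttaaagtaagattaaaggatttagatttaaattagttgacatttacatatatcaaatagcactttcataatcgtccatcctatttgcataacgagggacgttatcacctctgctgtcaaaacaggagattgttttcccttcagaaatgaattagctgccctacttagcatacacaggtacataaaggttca
SMYD1, chr2:88067575-88067874, plus strand: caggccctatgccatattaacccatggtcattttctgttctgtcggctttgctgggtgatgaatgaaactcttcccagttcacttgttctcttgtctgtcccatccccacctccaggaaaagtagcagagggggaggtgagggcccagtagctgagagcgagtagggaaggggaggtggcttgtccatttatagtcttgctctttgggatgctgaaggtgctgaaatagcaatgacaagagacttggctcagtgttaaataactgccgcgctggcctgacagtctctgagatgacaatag
The SRF window held a pair of CArG boxes, CCATATAAGG and CCATAAAAGG, which begin 30 and 10 bases before the start. Of 35116 promoter windows of this length, 1.29% held at least 1 CArG box and 11 (0.0313%) held 2 or more. One MEF2A window held CTAAAAATAG 23 bases before its start, and one MEF2C window held TTATTTTTAA 175 bases before its start. A MEF2 site was present in 2.99% of all windows. No match was found in the other MEF2A, MEF2C and SRF windows or in those of MEF2D, SMYD1 and HOPX. These matches describe the letters only, and no binding was measured here.

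From day 0 to day 9, 6 of the 7 genes rose, and SRF did not pass. A gene passed when its adjusted p in edgeR's quasi-likelihood fit, adjusted over the 22955 genes, was under 0.05. Of all genes tested, 24.1% rose from day 0 to day 9 by this rule and 23.5% fell. Against day 9, 4 of the 7 were higher at day 90 (MEF2A, SMYD1, HOPX and PRDM16), where 18.7% of all genes were higher, and MEF2C was lower, where 19.7% were lower. Over the 11 steps between neighbouring groups, 15 of 77 member tests passed, 13 upward and 2 downward, against 8.89% of all tests. No member passed at day 0 against pluripotent cells, day 11 against day 9, day 14 against day 11, day 20 against day 14 or day 90 against day 30, where 5.88, 3.39, 1.04, 0.0523 and 8.52% of all genes did. Other settings did call members at each of these steps except day 20 against day 14. MEF2A was higher at day 11 than at day 9 without day 11 replicate 2 (0.62, adjusted p = 0.044, edgeR). PRDM16 was higher at day 14 than at day 11 with DESeq2 (1.14, adjusted p = 0.046). With only the groups compared, MEF2C (1.23, adjusted p = 0.003) and PRDM16 (1.24, adjusted p = 0.0078) were higher at day 0 than in pluripotent cells. On TPM, MEF2C, MEF2D and PRDM16 were lower at day 90 than at day 30. Levels are CPM, counts per 1000000 counts after TMM scaling between libraries, unless TPM, which is also scaled for transcript length, is named. Changes are log2 fold changes of the later against the earlier group, with their standard error (SE).

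**Figure D1:**
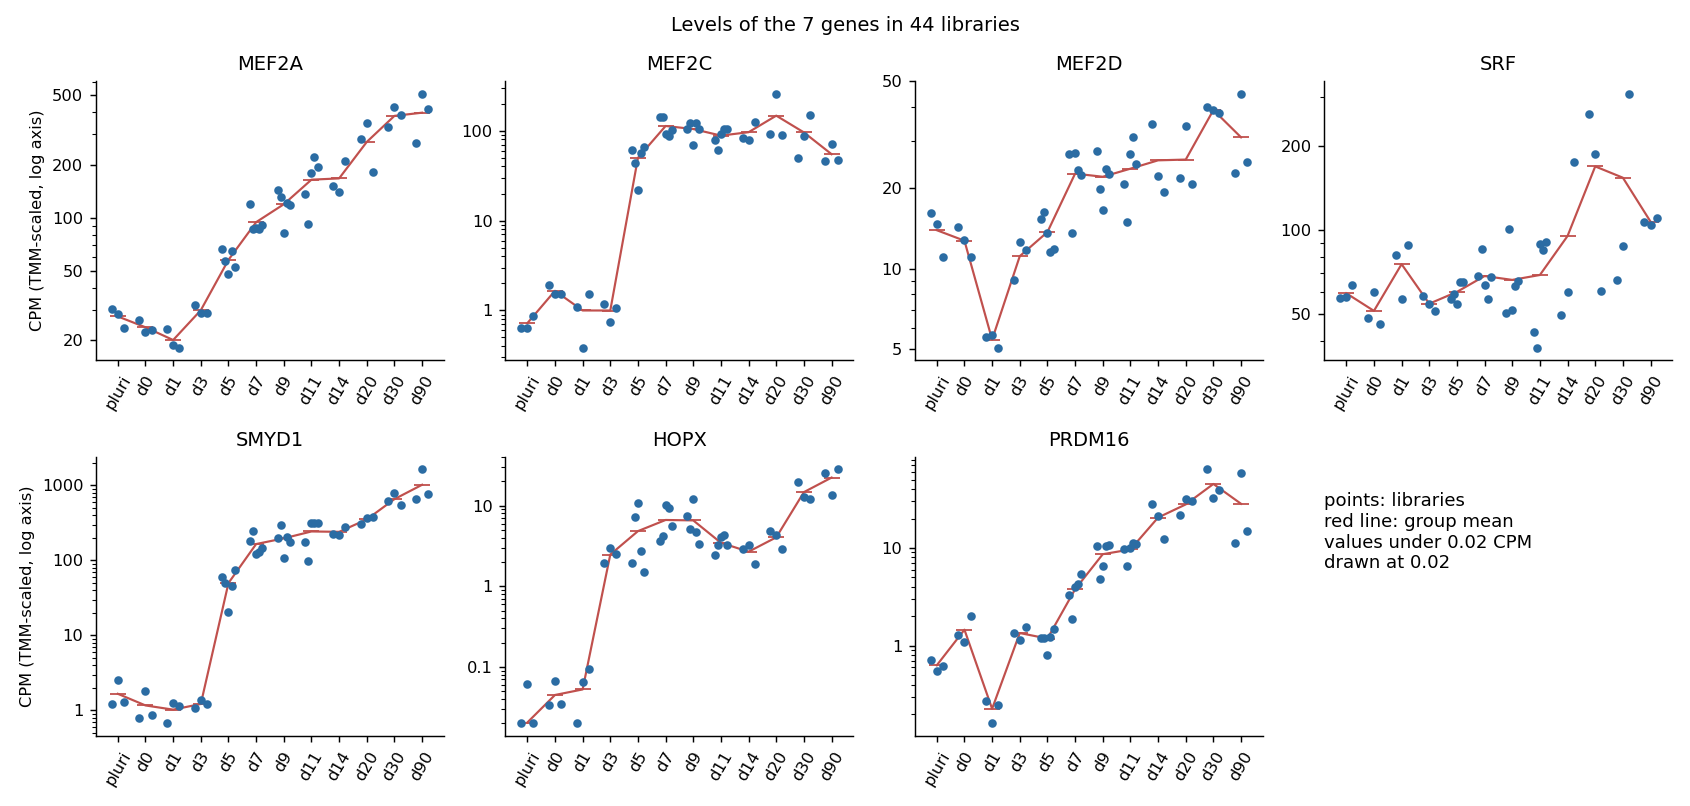
CPM (log axis, a separate scale in each panel) of the 7 genes in each of 44 libraries, in pluripotent cells (pluri) and by day (d0 to d90). Points are libraries and the red line joins group means, with values under 0.02 drawn at 0.02. MEF2C and SMYD1 step up between days 3 and 5, HOPX between days 1 and 3, and SRF spreads widely from day 14 to day 30.

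MEF2C is the MEF2 gene needed earliest for heart formation in mice. It stayed at 0.386 to 1.91 CPM in every library of pluripotent cells and days 0, 1 and 3. At day 5 the wells read 61.7, 43.8, 21.7, 56.3 and 66.0 CPM, and at day 7 they read 142, 142, 91.5, 87.8 and 101 CPM. No day 5 well came near the day 3 wells, and no day 7 well fell into the day 5 range. The rise from day 3 to day 5 was 5.64 (SE 0.47, adjusted p = 2.3e-11, edgeR), the first step that passed for this gene, and 8.16% of all genes rose at this step. From day 5 to day 7 it rose by 1.18 (SE 0.29, adjusted p = 0.0079), a call that was lost on TPM (0.78, adjusted p = 0.46, limma on log2(TPM + 1)). Of all genes, 4.16% rose at that step.

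MEF2C then levelled off. Day 9 wells held 105, 123, 68.9, 121 and 104 CPM, and day 90 wells held 45.5, 71.1 and 47.8 CPM. The lowest day 9 well, replicate 2, lay below the highest day 90 well, so the groups overlapped. MEF2C was lower at day 90 by edgeR (log2 change -0.93, SE 0.34, adjusted p = 0.03). The adjusted p was 0.054, 0.055, 0.1 and 0.094 without day 9 replicate 10, day 9 replicate 3, day 90 replicate 2 or day 90 replicate 5. The steps between day 7 and day 90 did not pass one by one. At day 20, replicate 2 had 258 CPM against 92.9 and 90.4 CPM in the other wells, and it was the shallowest library. MEF2C-AS1, which lies on the opposite strand within the locus (chromosome 5, 88717117 to 88904257), averaged 15.7 counts per library against 1507.6 for MEF2C.

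MEF2A (chromosome 15, 99565417 to 99716466) was present throughout, and its group mean was higher at each sampled day than at the one before from day 3 to day 90. The 4 earliest groups spanned 18.2 to 31.9 CPM. Wells had 66.5, 56.6, 47.9, 64.9 and 52.2 CPM at day 5 and 120.2, 86.7, 87.9, 86.8 and 91.1 CPM at day 7. These 2 groups did not overlap each other or day 3. MEF2A rose by 0.95 from day 3 to day 5 (SE 0.23, adjusted p = 0.0022) and by 0.71 from day 5 to day 7 (SE 0.19, adjusted p = 0.014, and 0.064 without day 7 replicate 1). Neither step passed on TPM (0.73 and 0.45, adjusted p = 0.17 and 0.62 with limma on log2(TPM + 1)).

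After day 7 the increase in MEF2A in CPM continued in small steps, none of which passed by itself. Day 9 wells had 144, 132, 82.1, 122 and 118 CPM, and day 90 wells had 268, 511 and 416 CPM. Every day 90 well was above every day 9 well in CPM, by 1.74 in the fit (SE 0.21, adjusted p = 2.2e-08). In TPM the ranges overlapped, at 7.79 to 27.2 at day 9 and 19.1 to 50.7 at day 90. Day 11 replicates 1 and 2, the wells high in endoderm and liver markers, had 136 and 92.1 CPM of MEF2A, and the other day 11 wells had 181, 223 and 194 CPM. In TPM, replicates 1 and 2 had 24.8 and 13.8 of MEF2A and the others 18.6, 24.1 and 18.7. Replicates 1 and 2 had a RIN of 8.6 and 8.0, against 9.2 to 9.5 in the others. Their total counts were 18014203 and 19060126, against 23631168 to 31323325. Whether the other cells, RNA quality or depth account for the gap in CPM was not tested. Without day 11 replicate 2, MEF2A was 0.62 higher at day 11 than at day 9 (adjusted p = 0.044, against 0.47 and 0.17 with it). LYSMD4, on the opposite strand of the MEF2A locus, averaged 282.6 counts per library against 2968.8 for MEF2A.

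MEF2D (chromosome 1, 156463727 to 156500828) dipped at the start of differentiation. Wells had 14.3, 12.8 and 11.0 CPM at day 0, 5.56, 5.66 and 5.07 CPM at day 1, and 9.06, 12.6 and 11.7 CPM at day 3. The day 1 wells lay below all others of these groups. MEF2D fell by 1.23 at day 1 (SE 0.27, adjusted p = 0.00079), where 12.3% of all genes fell, and rose by 1.03 at day 3 (SE 0.27, adjusted p = 0.0029), where 15.7% rose. Both steps share the day 1 wells, and neither passed on TPM (-0.62 and 0.65, adjusted p = 0.32 and 0.23 with limma on log2(TPM + 1)). At day 7 the wells had 26.7, 13.6, 27.0, 23.4 and 22.3 CPM, and all but replicate 10 exceeded every day 5 well. That step was 0.73 (SE 0.20, adjusted p = 0.022), and the adjusted p was 0.069 to 0.075 when day 5 replicate 4 or 5 or day 7 replicate 1 or 2 was left out. MEF2D was 0.79 higher at day 9 than at day 0 (SE 0.24, adjusted p = 0.006), with no overlap. From day 9 to day 90 the change was 0.49 (adjusted p = 0.092). It passed with sequencing lane as a term (0.58, adjusted p = 0.047) and without day 90 replicate 2 (0.64, adjusted p = 0.042). MEF2B, the remaining gene of the family, averaged 0.499 CPM at day 0, 0.341 at day 9 and 0.253 at day 90 and passed in neither long comparison. It overlaps a readthrough gene, so its low values are uncertain.

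Because TPM corrects for transcript length, the MEF2 genes can be compared with each other within a library. MEF2C made up 5.90, 7.22 and 4.45% of the summed MEF2A, MEF2C and MEF2D TPM in the day 0 wells. It made up 44.6, 50.2, 48.7, 52.8 and 45.7% at day 9, and 17.4, 14.7 and 11.9% at day 90. The 3 groups did not overlap. The MEF2C share rose by 42.5 percentage points from day 0 to day 9 and fell by 33.8 points from day 9 to day 90 (two-sided exact permutation test, p = 0.018 for each, the smallest that 56 splits allow, adjusted p = 0.018 over the 2 tests). MEF2A held 66.4 ± 1.57% at day 0 (SD, n = 3), 43.5 ± 2.96% at day 9 (SD, n = 5) and 79.7 ± 3.49% at day 90 (SD, n = 3). MEF2D held 27.8 ± 0.977% at day 0 (SD, n = 3) and between 5.07 and 9.25% in the group means from day 5 on.

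**Figure D2:**
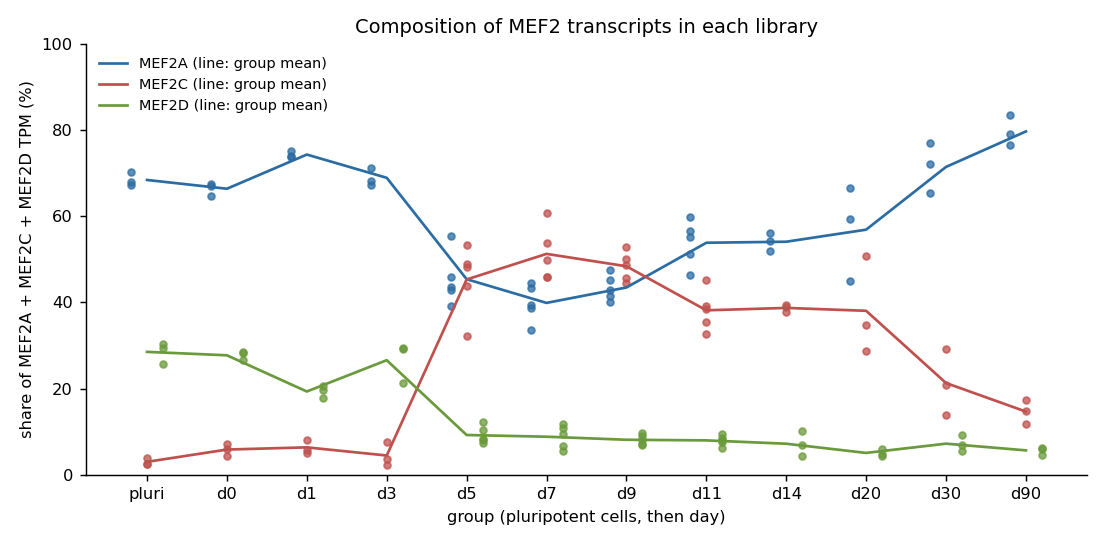
Share of the summed TPM of MEF2A, MEF2C and MEF2D held by each gene (vertical axis, %) in each library, from pluripotent cells (pluri) to day 90, with points for libraries and lines for group means. MEF2C reaches 45.3 to 51.3% in the group means of days 5 to 9, and MEF2A holds 76.6 to 83.5% at day 90.

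SRF (chromosome 6, 43171299 to 43181507) passed in none of the 11 steps and in neither long comparison. Wells had 48.3, 59.8 and 45.9 CPM at day 0, 50.5, 101, 51.7, 62.8 and 65.6 CPM at day 9, and 107, 104 and 111 CPM at day 90. Day 0 and day 9 overlapped, while all day 90 wells lay above all day 9 wells. The changes were 0.37 (SE 0.39, adjusted p = 0.45, edgeR) to day 9 and 0.70 (SE 0.38, adjusted p = 0.15) to day 90. With a spread estimated from the groups compared alone, SRF did pass in 3 comparisons: day 1 against day 0 (0.57, adjusted p = 0.012), day 3 against day 1 (-0.46, adjusted p = 0.023) and day 90 against day 9 (0.74, adjusted p = 0.019). In TPM, SRF was at 7.11 ± 0.870 at day 0 (SD, n = 3), 7.64 ± 3.76 at day 9 (SD, n = 5) and 7.92 ± 1.21 at day 90 (SD, n = 3).

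Between days 14 and 30 the SRF level differed more between wells of a day than between days. Day 14 wells had 49.8, 60.2 and 176 CPM, day 20 wells 261, 187 and 60.3 CPM, and day 30 wells 66.4, 87.6 and 309 CPM. The 4 high values belong to day 14 replicate 6, day 20 replicates 1 and 2 and day 30 replicate 3. CCN1, a matricellular gene that SRF is known to regulate, had 175, 137, 109.7 and 147 CPM in these wells in that order, and 17.2 to 33.2 CPM in the other 5 wells of those days. CCN2, its relative, had 273, 369.7, 336 and 630.3 CPM there, and 22.5 to 98.9 CPM in the other 5. ACTA2 and TAGLN, which are also SRF targets, did not follow SRF in this way. ACTA2 had 398, 681, 382 and 207 CPM in the 4 wells and 362 to 547 CPM in the other 5, and TAGLN was highest, at 1402 CPM, in day 30 replicate 1, where SRF was low. EGR1, another SRF target, had 28.7, 32.0, 43.4 and 21.2 CPM in the 4 wells. In the other 5 it was at 5.86 to 14.0 CPM, except 36.1 CPM in day 14 replicate 2, also low in SRF. CCN1 and CCN2 were picked out of 14 listed SRF targets, and these wells were compared, because their values stood out, so no test is given.

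FOS, an immediate-early SRF target, was less uniform, with 45.8, 62.6, 23.5 and 64.3 CPM in the 4 wells and 6.48 to 30.3 CPM in the other 5. At day 11 the low SRF wells, replicates 1 and 2 with 43.2 and 37.9 CPM, had 13.9 and 13.4 CPM of CCN1. The other day 11 wells, with 89.0, 84.8 and 90.4 CPM of SRF, had 67.3, 56.8 and 34.5 CPM of CCN1. In TPM, SRF was at 7.45 and 6.24 in replicates 1 and 2 of day 11 and at 7.46 to 8.01 in the others. Day 90 wells went the other way, with 107, 104 and 111 CPM of SRF but 20.8, 33.1 and 10.0 CPM of CCN1. Smooth muscle markers (MYH11, ACTA2, TAGLN and CNN1) summed to 1051, 904, 821 and 1652 TPM in the 4 wells with high SRF and to 458 to 852 TPM in the other 5 wells of days 14 to 30. Of these markers, ACTA2, TAGLN and CNN1 are among the SRF targets listed here. The RIN of the 4 wells was 8.2, 8.2, 8.0 and 10, and their total counts were 14148880, 27221714, 6937136 and 23661479. The part of marker levels, depth and RNA quality in the SRF values was not tested.

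**Figure D3:**
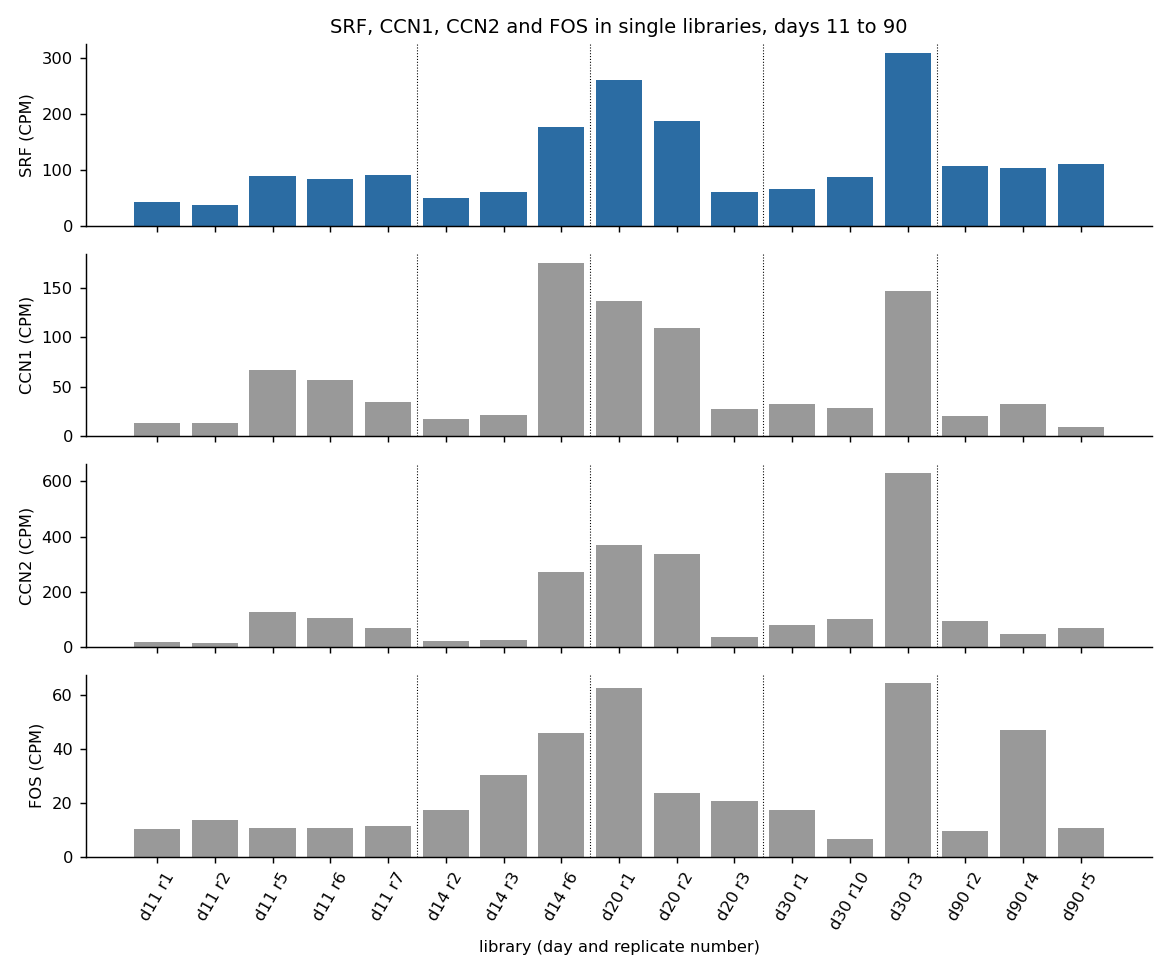
CPM (bars, each panel from 0) of SRF, CCN1, CCN2 and FOS in each of the 17 libraries of days 11 to 90, named by day (d) and replicate number (r), with dotted lines between days. SRF, CCN1 and CCN2 are all high in day 14 replicate 6, day 20 replicates 1 and 2 and day 30 replicate 3, while FOS is also at 47.2 CPM in day 90 replicate 4.

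SMYD1 (chromosome 2, 88067780 to 88113387) rose by 7.39 from day 0 to day 9 (SE 0.52, adjusted p = 2.8e-14). All libraries up to day 3 held 0.674 to 2.51 CPM. Day 5 wells had 59.9, 50.3, 20.5, 45.0 and 74.3 CPM, and day 7 wells had 181, 249, 122, 128 and 148 CPM. As for MEF2C, the step to day 5 was the first that passed (5.35, SE 0.48, adjusted p = 1.4e-10), and day 5 replicate 3 was the lowest of its group for both genes. That well had 452 TPM of endoderm and liver markers against 156 to 354 TPM in the other day 5 wells. The step to day 7 was 1.73 (SE 0.31, adjusted p = 0.00021).

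SMYD1 wells had 202, 293, 108, 208 and 175 CPM at day 9 and 659.9, 1638 and 770.2 CPM at day 90. The ranges were far apart, with a change of 2.37 (SE 0.34, adjusted p = 6.7e-07). Day 90 replicate 4, the highest well, also had the highest summed cardiomyocyte markers, 10491 TPM against 4925 and 4793 TPM, and the lowest fibroblast markers, 182 TPM against 858 and 414 TPM. The part of cell composition in the SMYD1 values was not tested. At day 11, replicates 1 and 2 had 176 and 97.8 CPM and the others 314, 313 and 318 CPM, the same split in CPM as for MEF2A and SRF. In TPM only replicate 2 was low, at 16.2 against 30.5 in replicate 1 and 29.4 to 33.6 in the others.

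HOPX (chromosome 4, 56647988 to 56681899) came up earlier than SMYD1 and remained low until day 20. Pluripotent, day 0 and day 1 libraries held 0 to 3 counts of HOPX each. The day 3 wells held 49, 80 and 66 counts, or 1.95, 2.98 and 2.49 CPM. The groups were far apart, and pooled counts of 195 at day 3 and 5 at day 1 gave a ratio of 46.1 per effective library size, with a 95% exact interval of 19.4 to 144 that covers counting error only. The fitted change was 5.40 (SE 0.77, adjusted p = 9.9e-07, edgeR), at the step from day 1 to day 3. For day 9 against day 0 the fit gave 7.03 (SE 0.77, adjusted p = 1.4e-09), and pooled counts of 898 and 4 gave a ratio of 147 (57.2 to 541).

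HOPX varied between wells from day 5 to day 9. Day 5 wells had 1.97, 7.18, 10.8, 2.70 and 1.49 CPM, and day 9 wells had 7.47, 5.13, 12.1, 4.72 and 3.35 CPM. The highest wells were day 5 replicate 3 and day 9 replicate 2, each the lowest of its group for SMYD1 and MEF2C and the highest for endoderm and liver markers (452 and 1760 TPM). Day 11 did not show this. Replicates 1 and 2, with 2195 and 4090 TPM of these markers, had 2.43 and 3.27 CPM of HOPX, and the other day 11 wells had 4.03, 4.32 and 3.25 CPM. The part of cell composition in the HOPX values was not tested. From day 11 to day 20 the wells held 1.87 to 4.87 CPM, below every day 30 well (19.4, 12.7 and 12 CPM) and every day 90 well (25.1, 13.6 and 28.1 CPM). The rise from day 20 to day 30 was 1.87 (SE 0.53, adjusted p = 0.045), where 1.27% of all genes rose. It missed the threshold when day 30 replicate 1 (adjusted p = 0.14) or any of the day 20 wells (adjusted p = 0.069 to 0.099) was left out, and in 4 other settings, among them a model of only days 20 and 30 (adjusted p = 0.29) and one that left out the libraries under 15000000 counts (adjusted p = 0.1). HOPX was higher at day 90 than at day 9 by 1.77 (SE 0.44, adjusted p = 0.0014), and no wells overlapped.

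PRDM16 (chromosome 1, 3069168 to 3438621) passed in 4 steps, the most of the 7 genes. Like MEF2D it dipped at day 1, from 1.28, 1.10 and 2.00 CPM at day 0 to 0.270, 0.161 and 0.249 CPM, and was back at 1.35, 1.15 and 1.55 CPM at day 3. The day 1 wells lay below all others, but they rest on 5 to 8 counts per library. The changes were -2.66 (SE 0.53, adjusted p = 0.00028) and 2.55 (SE 0.53, adjusted p = 0.00031). On TPM neither passed, at -0.38 and 0.30 with limma on log2(TPM + 1) (adjusted p = 0.57 and 0.64) and -1.56 and 1.28 on log2(TPM + 0.1) (adjusted p = 0.092 and 0.14). PRDM16 did not pass at day 5 (-0.19, adjusted p = 0.81) and rose at day 7 (1.67, SE 0.34, adjusted p = 0.00098).

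Day 7 wells held 3.30, 1.88, 4.02, 4.24 and 5.47 CPM of PRDM16, and day 9 wells held 10.5, 4.79, 6.53, 10.6 and 10.8 CPM. Replicate 10 was the lowest of both groups, and the groups overlapped slightly. PRDM16 was the only member to pass at this step (1.19, SE 0.31, adjusted p = 0.034), where 1.42% of all genes rose. Leaving out any of 7 single wells of these days took it to an adjusted p of 0.056 to 0.11. Wells reached 63.7, 32.8 and 39.2 CPM at day 30 and held 11.3, 58.6 and 15.1 CPM at day 90. The fit gave 1.71 for day 90 against day 9 (SE 0.34, adjusted p = 0.00011), but 0.62 (adjusted p = 0.12) without day 90 replicate 4, the well with the highest cardiomyocyte markers. Against day 30, day 90 was -0.68 (adjusted p = 0.3), and without that well -1.76 (adjusted p = 0.0019). With the replicate number as a block, day 90 against day 30 was -1.33 (adjusted p = 0.024, edgeR). Days 30 and 90 share no replicate number, so the block pairs no wells here and its terms come from other days.

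**Figure D4:**
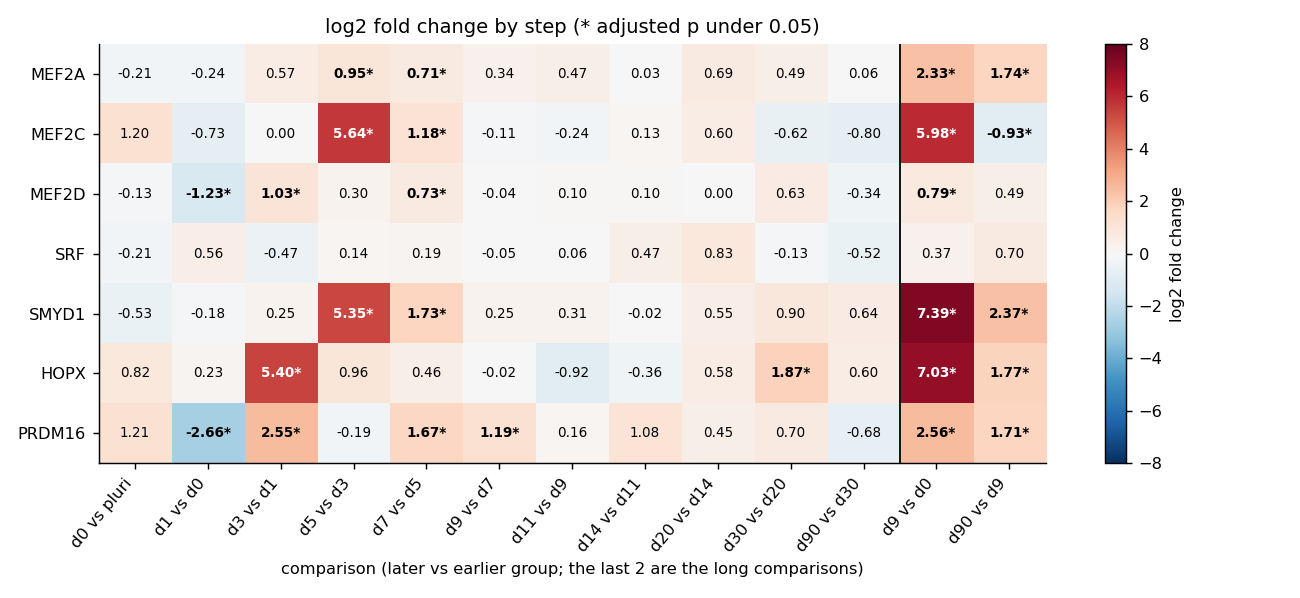
log2 fold change (colour and number) of each of the 7 genes in the 11 steps between neighbouring groups and in the 2 long comparisons, to the right of the black line. Stars mark an adjusted p under 0.05 from edgeR, adjusted over 22955 genes. Of the 15 stars in the steps, 14 lie at or before day 9.

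The scale of the values matters for the weaker changes. In 5029 genes that average 10 TPM or more, the log2 change in TPM was a median 0.37 lower than in scaled counts for day 9 against day 0, and 0.54 lower for day 90 against day 9. Tested with limma on log2(TPM + 1), MEF2D at day 9 came to 0.29 (adjusted p = 0.47) and PRDM16 to 0.65 (adjusted p = 0.075), and PRDM16 at day 90 against day 9 to 0.47 (adjusted p = 0.2). For day 90 against day 30 the median shift was -0.81, and with limma on log2(TPM + 1) MEF2C (-1.41, adjusted p = 0.04), MEF2D (-1.04, adjusted p = 0.034) and PRDM16 (-1.19, adjusted p = 0.023) were lower, while on counts they came to -0.80, -0.34 and -0.68 and did not pass. Of the 15 passes over the steps, 5 were kept on this scale, namely MEF2C at day 5, SMYD1 at days 5 and 7 and HOPX at days 3 and 30. The change of MEF2D from day 9 to day 90 was -0.25 in TPM (adjusted p = 0.52), against 0.49 on counts. MEF2A, MEF2C, SMYD1 and HOPX passed on both scales in both long comparisons, in the same direction. In TPM the order at day 0 was SRF at 7.11, MEF2A at 4.97, MEF2D at 2.07, MEF2C at 0.437, PRDM16 at 0.390, SMYD1 at 0.230 and HOPX at 0.0300. At day 90 it was SMYD1 at 84.9, MEF2A at 32.3, SRF at 7.92, HOPX at 6.62, MEF2C at 5.87, PRDM16 at 2.60 and MEF2D at 2.35. The day 90 ranges of SMYD1 and MEF2A overlapped. The day 0 ranges of MEF2C, PRDM16 and SMYD1 overlapped, as did the day 90 ranges of the genes from SRF to PRDM16 with their neighbours and those of PRDM16 and MEF2D.

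Over the 12 group means of log2 CPM, the members resembled each other to different degrees. Pearson's r, given as a description over groups that share libraries and depth, was 0.96 for SMYD1 with MEF2C, for SMYD1 with MEF2A and for MEF2A with PRDM16. SRF had the lowest values, 0.52 to 0.78 with the other 6. Among 12243 protein-coding genes, those closest to SMYD1 were XIRP1 (0.994), TNNT2 (0.992) and CORIN (0.991), of which XIRP1 and TNNT2 encode muscle structural proteins. COL6A3 (0.993), KLF2 (0.990) and BACH2 (0.981) were closest to MEF2C. TGFB1I1 (0.994), ATXN1 (0.993) and PPP1R13B (0.993) were closest to MEF2A, and SPIRE1 (0.969), TIMP1 (0.960) and CACNA1G (0.959) to MEF2D. KIAA0232 (0.967), TMEM115 (0.949) and SLC10A3 (0.943) were closest to SRF. PROS1 (0.989), TBC1D19 (0.987) and RNPEPL1 (0.987) were closest to HOPX, and ARID5B (0.986) and HSPB8 (0.983) to PRDM16.

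Of 9 coactivators of SRF and MEF2, 4 were higher at day 9 than at day 0, none was lower, and the median change was 0.73 against 0.08 over all genes. Of all genes, 24.1% were higher and 23.5% lower in that comparison, and 18.7% and 19.7% at day 90 against day 9. MYOCD, the myocardin gene and the cardiac partner of SRF, averaged 2.02 ± 0.141 CPM at day 0 (SD, n = 3) and 169.7 ± 50.8 CPM at day 9 (SD, n = 5), a rise of 6.39 (SE 0.42, adjusted p = 4.4e-15). CSRP3, the muscle LIM protein, rose by 5.99. At day 90 against day 9, 3 were higher, 2 were lower and the median was 0.07 against -0.02 over all genes. CSRP3 rose by 3.70 and FHL2, a LIM-domain cofactor, by 3.59, while MRTFB, a widely expressed myocardin relative, fell by 1.01 and NACA by 0.45 (adjusted p = 0.043). MYOCD was level, at 163 ± 27.8 CPM (SD, n = 3, adjusted p = 0.9).

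Among 10 repressors and competing cofactors, 4 were higher and 3 lower at day 9, with a median of 0.16. Over all genes, 24.1% were higher and 23.5% lower at day 9, and 18.7% and 19.7% at day 90 against day 9. ELK3, an ETS partner of SRF, rose by 1.08 and HDAC5, a class IIa deacetylase, by 0.99. CABIN1, a MEF2 corepressor, fell by 0.64 and HDAC2 by 0.51. At day 90 against day 9, 2 were higher and 5 lower, with a median of -0.40. HDAC9, whose class IIa product binds MEF2, rose from 35.9 ± 8.01 to 106 ± 32.9 CPM (SD, n = 5 and 3, log2 change 1.56, adjusted p = 1.4e-05) and CABIN1 rose by 0.77. ELK3 fell by 1.69 and HDAC7 by 1.21.

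The list of SMYD and PRDM relatives and PRDM16 partners moved both ways. At day 9, 4 of 11 were higher and 5 lower (median 0.15). Over all genes, 24.1% were higher and 23.5% lower at day 9, and 18.7% and 19.7% at day 90 against day 9. PRDM6, a smooth muscle regulator, rose by 6.02 from 0.293 ± 0.0861 CPM (SD, n = 3), and MECOM, the closest PRDM16 paralog, rose by 3.07. PRDM14, a pluripotency regulator, fell from 132 ± 12.8 CPM (SD, n = 3) to 0.123 ± 0.112 CPM (SD, n = 5), and CTBP2, a corepressor, fell by 1.39. At day 90 against day 9, 1 was higher and 5 lower (median -0.43). SMYD2 was the one that rose, by 1.72 after 2.65 in the earlier comparison, and PRDM1 fell by 3.01 and MECOM by 2.07. MECOM was lower at day 90 than at day 9 while PRDM16 was higher in the same fit, apart from the dependence of PRDM16 on 1 well given above.

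Known targets were read from 2 further lists. Over all genes, 24.1% were higher and 23.5% lower at day 9, and 18.7% and 19.7% at day 90 against day 9. Of 14 SRF targets, 7 were higher and 1 lower at day 9 (median 1.84). ACTA2 rose by 6.60 and ACTC1, the cardiac actin, by 6.58, while ACTB, the cytoplasmic actin, fell by 0.76. At day 90 against day 9, 3 were higher and 2 lower (median -0.72), with MYL9 up by 2.63, CNN1 up by 1.89, CCN1 down by 1.92 and ACTB down by 1.11. Of 10 MEF2 targets, 8 were higher and none lower at day 9 (median 3.82). MYH6, the atrial-type myosin heavy chain, rose by 8.72 and XIRP1, an intercalated disc protein, by 7.84. At day 90 against day 9, 6 were higher and 1 lower (median 1.23). XIRP2 rose by 4.83 and MYOM1, which links myosin in the sarcomere's M-band, by 3.63, while MYH6 fell by 2.26. These lists hold mostly muscle genes, and their counts describe them without showing the factors' activity.

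**Figure D5:**
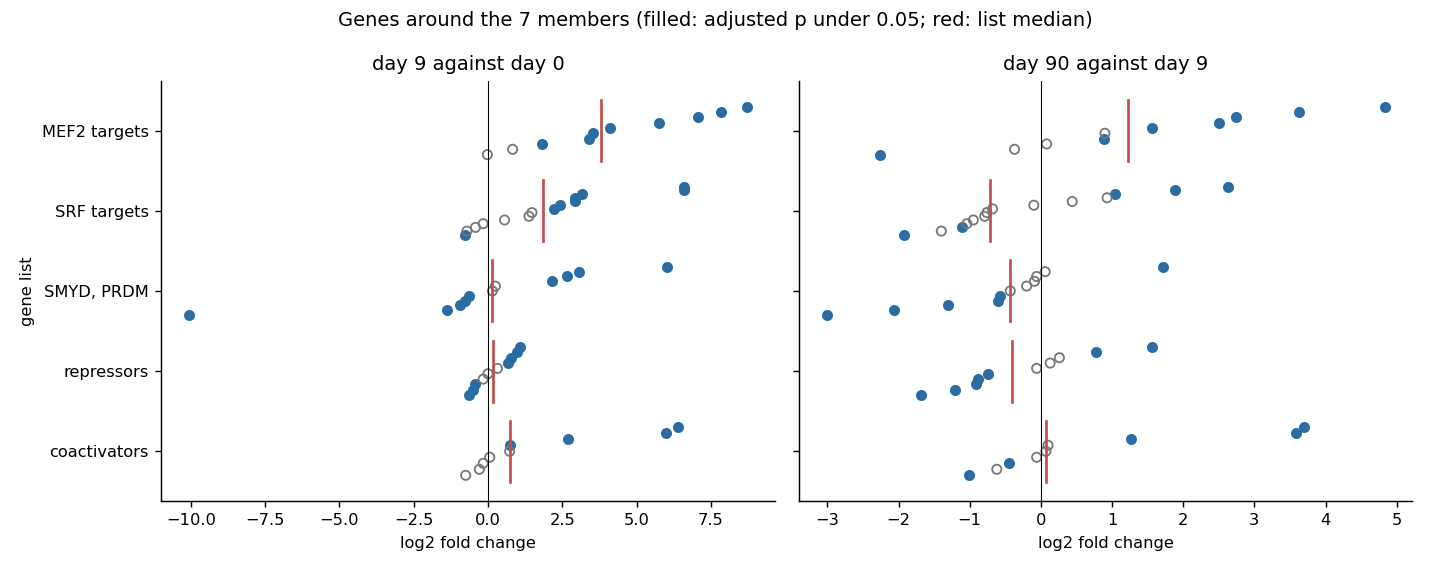
log2 fold change (horizontal axis, a separate scale in each panel) of each gene in the 5 lists, for day 9 against day 0 (left) and day 90 against day 9 (right). Filled points passed at an adjusted p under 0.05, open points did not, and red bars are list medians. The median of the MEF2 targets is 3.82 on the left and 1.23 on the right, and that of the SRF targets 1.84 and -0.72.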

How the data were processed

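RNA was measured in 44 libraries of H1 cells, made with a stranded total-RNA kit per the labels' protocols. Per the submitters' processing notes, cutadapt, STAR 2.5.2b, RSEM 1.2.31 and the hg38 build were used, without a role or order given. The annotation and the use of strand are not given in the sources used here, so values of genes that overlap another gene are uncertain. The authors deposited estimated counts (93.8% whole numbers, not scaled between libraries) and TPM, which are scaled for length and to 1 sum per library. TPM include abundant small non-coding RNAs, so changes in those shift the TPM of other genes. The RNA integrity number, a score, is in a table deposited by the authors. The tables give identifiers without names. GENCODE release 29 (GRCh38, positions counted from 1) supplied symbols and positions for 56769 of 60499.

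Counts were rounded, filtered with filterByExpr, scaled by TMM and fitted with edgeR 4.0.16 (R 4.3.3) with 1 mean per group over all 44 libraries. Changes are contrasts of that fit, with Benjamini-Hochberg adjustment over 22955 genes and no minimum fold. The limma version was 3.58.1 and that of DESeq2 1.42.0. On simulated day 0 and day 9 counts with 200 of 22955 genes changed, the test recovered 62% of 2-fold and 93% of 4-fold changes. In that simulation 4 unchanged genes passed. The changed genes were drawn only from genes above a minimum mean count, so these rates do not cover genes of low count. Far fewer genes were changed there than passed in the data. A floor of 3 counts is 0.0896 to 0.432 CPM before scaling, and intervals and floors cover counting error only. Members and lists were chosen with earlier results of these data known. From each list the text names the 2 largest rises and 2 largest falls that passed in each long comparison, MYOCD and MEF2B in any case, and per member the 3 genes with the highest r over group means, of which 1 is not reported here. CCN2, FOS, EGR1 and TAGLN were named after their values were seen, as were the single wells of CCN1, CNN1 and ACTA2. Promoter windows are from RefSeq (GRCh38.p14).

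Replicate numbers come from the labels, which give no meaning to them. Same-numbered wells deviated together in all 5 pairs for day 9 against day 7 (lowest correlation 0.16), so the numbers were taken to pair wells there. Fewer numbers are shared in the other comparisons. All shared pairs were also positive at day 14 against day 11 (0.34 and 0.30), day 20 against day 14 (0.29 and 0.57) and day 90 against day 9 (0.24 and 0.29). The same held at day 0 against pluripotent cells (0.55, 0.04 and 0.07). Both pairs were negative at day 30 against day 20 (-0.23 and -0.46), and days 30 and 90 share no number. The remaining comparisons held pairs of both signs. The main fit has no block for replicate number. PRDM16, the member that passed at day 9 against day 7, passed with the block as well.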

Additional observations from a re-analysis of the deposited data

Results flagged for a closer look

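Of 28 groups of 5 wells tested for a well far from the others, 1 stood out, and chance flags about 1 in 20. MEF2A in day 7 replicate 1 was at 120.2 CPM, while the other day 7 wells lay between 86.7 and 91.1 CPM. Its distance to the nearest well took 0.869 of the group's range, above the critical value of 0.71. Without this well the step from day 5 to day 7 in MEF2A was 0.61 (adjusted p = 0.064, edgeR's quasi-likelihood test).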

How the results depend on the processing

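Alternatives were scaling by DESeq2's method (RLE) in edgeR, DESeq2, no filter or at least 10 counts in every library of a group, limma on log2(TPM + 1) or log2(TPM + 0.1), a minimum log2 change of 1, only the groups compared, sequencing lane as a term, a replicate block, leaving out each well and, chosen after seeing the data, leaving out the 4 libraries under 15000000 counts. Of 1685 values for 91 gene and comparison pairs, 1612 kept their direction and side of the threshold, 54 lost and 19 gained a pass, and 0 turned direction as a pass. Of 26 passes, 11 held under every alternative run. The 15 passes over the steps became 8 with limma at either pseudocount, of which 5 were kept, 10 were lost and 3 were gained (MEF2C, MEF2D and PRDM16 lower at day 90 than at day 30). The 15 became 17 with the replicate block and 19 with only the groups compared, and 12 to 18 when 1 well was left out. The block gave 6 and 5 passes in the long comparisons, as without it. It added MEF2A at day 3 against day 1 (0.57, adjusted p = 0.033, against 0.08) and PRDM16 at day 90 against day 30, given above. Leaving out 1 well gave 6 passes of members for day 9 against day 0, 4 to 5 for day 90 against day 9, 34 to 38 and 28 to 32 passes of listed genes (36 and 30 with all wells), and MEF2C share changes of 41.4 to 43.5 and -35.1 to -32.4 points. Low counts limit PRDM16 and HOPX before day 5 and MEF2B throughout.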

Other observations

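XIRP1 and XIRP2, paralogs that encode actin-binding proteins of the intercalated disc, followed different courses. XIRP1 went from 0.962 ± 0.349 CPM at day 0 (SD, n = 3) to 221 ± 70.7 CPM at day 9 (SD, n = 5), and the difference between day 9 and day 90 did not pass (log2 change 0.90, adjusted p = 0.21, edgeR's quasi-likelihood test). XIRP2 stood at 0.438 ± 0.0817 CPM at day 0 (SD, n = 3) and 0.438 ± 0.219 CPM at day 9 (SD, n = 5), and reached 12.4 ± 7.56 CPM at day 90 (SD, n = 3, log2 change 4.83, adjusted p = 6.4e-06). The difference between the courses was not tested. CKM, the muscle creatine kinase gene, rose in both comparisons, by 7.08 (adjusted p = 1.3e-10) and by 2.74 (adjusted p = 9.4e-06).

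MYOCD rose before SMYD1 and MEF2C. Its day 1 wells had 0.943, 1.12 and 0.965 CPM and its day 3 wells 38.5, 16.7 and 10.1 CPM, so these groups did not overlap (log2 change 4.42, SE 0.41, adjusted p = 1.1e-10, edgeR). At day 3 SMYD1 held 1.07 to 1.38 CPM and MEF2C 0.745 to 1.19 CPM, and neither passed at that step (adjusted p = 0.76 and 1).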
